A study of Mus musculus with 8 samples.

Results

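The genes described here are 10 regulators of the G1 phase of the cell cycle: the D-type cyclins Ccnd1, Ccnd2 and Ccnd3, their kinases Cdk4 and Cdk6, the INK4 inhibitors Cdkn2a, Cdkn2b, Cdkn2c and Cdkn2d, and the Kip inhibitor Cdkn1b. They were chosen by name, as gene probes whose transcript accession maps to one of these symbols, and all 10 were found, among 45586 named features on the array. Together they held 17 probes. The array measured RNA of cells sorted from mammary tumours of bitransgenic mice that carry an sSHIP GFP reporter and the C(3)1 Tag transgene, 4 arrays of lineage-negative, CD49f-positive, GFP-positive cells and 4 of lineage-negative, CD49f-positive, GFP-negative cells. The reporter puts GFP under the internal promoter of the phosphatase gene Inpp5d, and in the other transgene the 5' flanking region of the rat C3(1) gene drives the SV40 large T antigen in mammary epithelium. Cells of both populations come from tumours of these bitransgenic mice, so every array is of large T tumour tissue, and no array of normal gland or of a tumour without large T was compared. Each population carries the title numbers 566, 567, 573 and 631, so the 8 arrays form 4 pairs. The labels do not say what a number stands for or whether each came from a separate animal, and they give no age. P-values therefore measure the spread between these samples only.

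D-type cyclins bind CDK4 or CDK6, and the kinase phosphorylates the retinoblastoma protein, which then releases E2F factors that turn on the genes of DNA replication. The INK4 proteins bind CDK4 and CDK6 and keep the cyclin away, while the Kip protein p27 binds cyclin-CDK complexes and blocks CDK2 most strongly. Large T binds the retinoblastoma protein through the LxCxE motif, which D-type cyclins also carry, and frees E2F without the kinase. Cells without a working retinoblastoma protein are known to make much p16 and to depend less on cyclin D and CDK4/6.

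A level here is the log2 of the processed intensity minus the 75th percentile of that array, so 0 is that percentile, and levels of different probes are not compared. The GFP-positive array of number 573 stood apart in detection: 34.1% of its gene spots passed the scanner's detection flag (well above background), against 53.5% to 58.5% on the other 7 arrays, and its dimmest detected spot had 142 intensity units against 13.4 to 23.5. Of the members, 9 passed the filter of being well above background on all 4 arrays of a population and were tested among 20265 genes; Cdk6 did not pass. All 4 arrays of GFP-positive cells lay in 1 column of the slide and all 4 of GFP-negative cells in the other, and the effects of column and sort cannot be told apart.

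**Figure D1:**
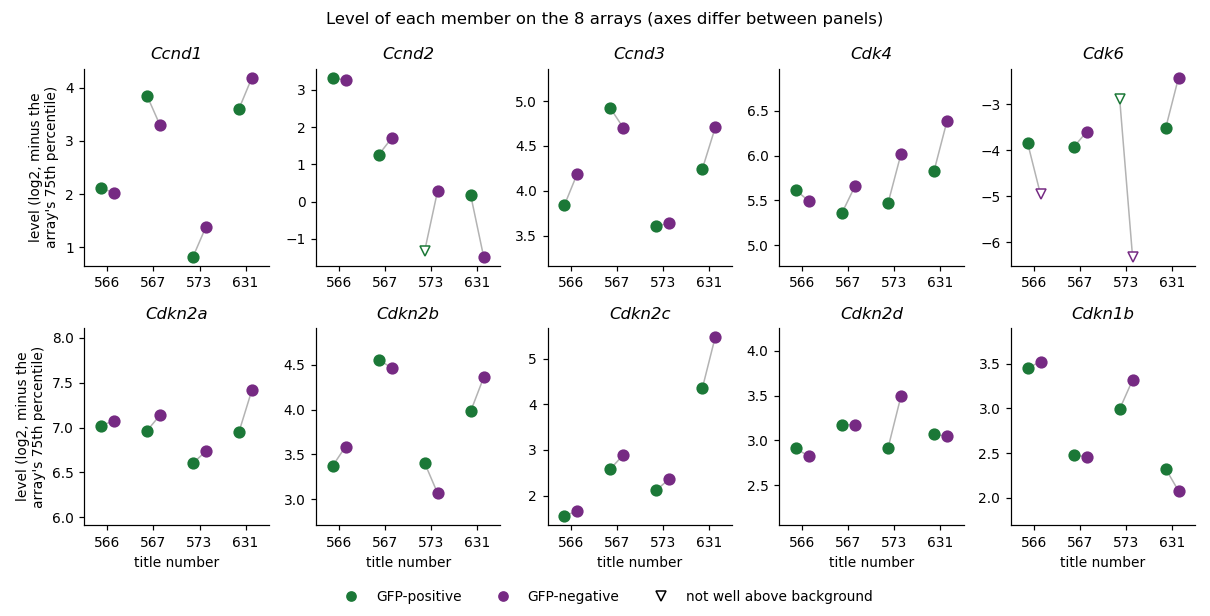
Level (log2, minus the 75th percentile of the array) of the brightest probe of each of the 10 genes, by title number, for GFP-positive and GFP-negative cells, with open triangles for values not well above background. The arrays of a number lie close together for most genes, while Ccnd1, Ccnd2 and Cdkn2c run over several units between numbers.

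Between the title numbers the D-type cyclins and several inhibitors differed widely. In limma's F-test across the 4 numbers, with the population as a covariate, 6 of the 9 members tested passed at a Benjamini-Hochberg adjusted p under 0.05, against 28.2% of all genes. They were Ccnd1, Ccnd2, Ccnd3, Cdkn2b, Cdkn2c and Cdkn1b; Cdkn2a, Cdkn2d and Cdk4 did not pass. At an unadjusted p under 0.05 it was 6 of 9 members and 45.3% of all genes. The median range between the highest and lowest number was 1.28 on the log2 scale over the 9 members and 0.82 over all genes. The test sets the spread between numbers against what is left after number and population, and the arrays of a number hold different sorted cells. With a number left out fewer arrays entered, and 4 members passed without 566, 3 without 567, 4 without 573 and 4 without 631, while the share of all genes passing was 20.6%, 9.36%, 14.2% and 14.7%. In bulk samples such as these, fewer cells of a type and less RNA per cell cannot be told apart.

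**Figure D2:**
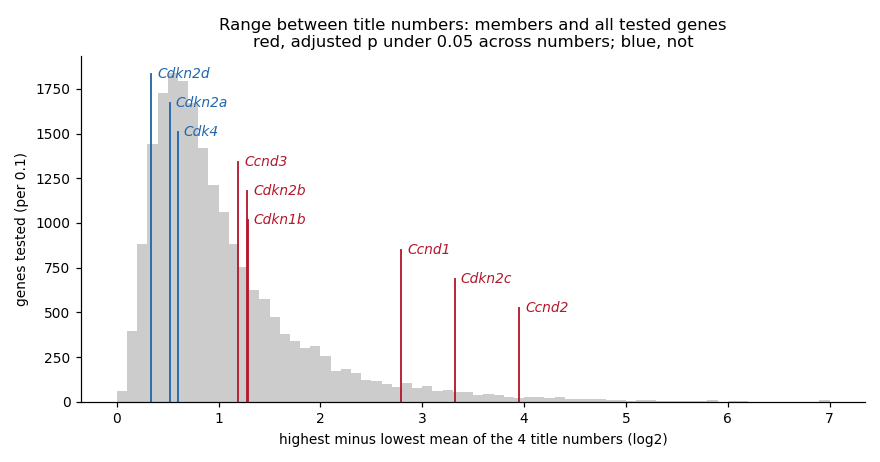
Number of tested genes (y axis) by the difference between the highest and the lowest mean of the 4 title numbers (x axis, log2, values above 7 drawn at 7), with lines at the 9 members tested (brightest probe of each). Ccnd1, Cdkn2c and Ccnd2 lie at 2.79, 3.32 and 3.95, and Cdkn2d, Cdkn2a and Cdk4 at 0.34, 0.52 and 0.60.

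Ccnd2, cyclin D2, had the widest range of the members. Its brightest probe had levels of 3.33 in GFP-positive and 3.26 in GFP-negative cells of number 566, 1.26 and 1.70 in 567, -1.32 and 0.29 in 573, and 0.17 and -1.48 in 631. Both arrays of 566 lay above all others and both of 567 came next, while 573 and 631 overlapped. The value of GFP-positive cells of 573 was not told from background, since on that array the lowest level well above background was -0.87. The mean of 566 was 15.5-fold that of 631 (limma F-test across numbers, adjusted p = 0.0210). The other probes of Ccnd2 gave 17.4-fold and 19.3-fold between the same numbers and the same order. Their intensities in GFP-negative cells of 631, 29.6 and 21.3, were near the dimmest detected spot of that array, 17.8. Without 566 the range was 2.14 on the log2 scale in place of 3.95, and Ccnd2 did not pass (limma adjusted p = 0.140); over all alternatives its adjusted p ran from 5.36e-20 to 0.231. The lowest of these came with median scaling, under which limma gave all genes 1 variance. The call was lost in 4 of the 16 alternatives that tested Ccnd2 across numbers.

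Ccnd1, cyclin D1, the D-type cyclin that the mammary gland needs for its alveolar growth, had another order. Its single probe had levels of 2.11 in GFP-positive and 2.03 in GFP-negative cells of 566, 3.85 and 3.30 in 567, 0.83 and 1.39 in 573, and 3.61 and 4.19 in 631. The arrays of 567 and 631 overlapped and lay above both of 566, which lay above both of 573. The mean of 631 was 6.93-fold that of 573 (limma F-test across numbers, adjusted p = 0.00819). Number 631, with the highest Ccnd1 mean, had the lowest Ccnd2 mean, and 566, with the highest Ccnd2, had the next to lowest Ccnd1 mean. Ccnd1 passed with each number left out. Over the 17 alternatives with a test across numbers its limma adjusted p ran from 6.11e-13 to 0.189. The lowest came with median scaling, under which limma gave all genes 1 variance. Ccnd1 did not pass without a filter on dim probes or with a common floor (limma adjusted p = 0.0635).

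Ccnd3, cyclin D3, moved less. Its brighter probe had levels of 3.84 and 4.19 in GFP-positive and GFP-negative cells of 566, 4.92 and 4.70 in 567, 3.61 and 3.64 in 573, and 4.25 and 4.71 in 631. Number 573 was lowest for Ccnd3 as for Ccnd1, and 567 and 631 were highest and overlapped. The range was 2.28-fold (limma F-test across numbers, adjusted p = 0.0383) and the other probe gave 2.35-fold. This call was lost without 567, 573 or 631 (limma adjusted p = 0.134, 0.157 and 0.0501). Over the 17 alternatives with a test across numbers its limma adjusted p ran from 0.00311, with median scaling, to 0.319. The call was lost in 9 of these 17, among them quantile normalization (limma adjusted p = 0.0935).

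Cdk4, the main partner of the D-type cyclins in epithelium, was steady between numbers. The brightest of its 3 probes had levels of 5.62 and 5.49 in GFP-positive and GFP-negative cells of 566, 5.36 and 5.66 in 567, 5.47 and 6.02 in 573, and 5.83 and 6.38 in 631. Every number overlapped its neighbour in the order. The range was 1.51-fold and did not pass (limma F-test across numbers, adjusted p = 0.224); the other probes gave 1.45-fold and 1.38-fold. Cdk6, the second kinase of the D-type cyclins, gave levels from -6.31 to -2.42 on its single probe. It was well above background on 3 of 4 arrays of GFP-positive cells, not on that of 573, and on 2 of 4 arrays of GFP-negative cells, those of 567 and 631. With the reported filter it was not tested. In the 4 alternatives that let it in, it did not pass between populations (limma adjusted p = 0.928 with no filter and 0.817 with detection on at least 3 of 4 arrays, from 0.817 to 1.00 over the 4), and without 573 its difference was -0.10 in place of 0.78.

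The INK4 inhibitors differed among themselves. Cdkn2a lies on chromosome 4 beside Cdkn2b and makes p16 and, from another first exon and reading frame, p19Arf, which restrains Mdm2 and so keeps p53. The files give both Cdkn2a probes the same transcript accession, and whether either tells p16 from p19Arf was not examined, so a value stands for the locus. The 250 bases before each RefSeq start of Cdkn2a (build GRCm38.p6) are shown because the starts serve the different products, with Cdkn2c shown as the INK4 gene of the widest range. The motifs TTTCCCGC and TTTGGCGC, forms of the E2F site, were searched on both strands, and matches are in capitals.
Cdkn2a, upstream start, chr4:89294620-89294869, minus strand: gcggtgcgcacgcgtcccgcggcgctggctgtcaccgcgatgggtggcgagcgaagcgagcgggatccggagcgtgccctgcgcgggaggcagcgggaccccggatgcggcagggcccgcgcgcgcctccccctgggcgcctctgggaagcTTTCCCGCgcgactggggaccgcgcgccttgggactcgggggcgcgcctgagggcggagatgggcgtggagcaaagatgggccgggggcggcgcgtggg
Cdkn2a, downstream start, chr4:89282193-89282442, minus strand: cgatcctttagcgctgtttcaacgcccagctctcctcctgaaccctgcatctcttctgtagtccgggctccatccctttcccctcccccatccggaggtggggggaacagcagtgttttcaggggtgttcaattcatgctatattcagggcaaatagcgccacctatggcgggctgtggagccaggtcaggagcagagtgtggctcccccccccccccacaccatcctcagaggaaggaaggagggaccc
Cdkn2c, upstream start, chr4:109666757-109667006, minus strand: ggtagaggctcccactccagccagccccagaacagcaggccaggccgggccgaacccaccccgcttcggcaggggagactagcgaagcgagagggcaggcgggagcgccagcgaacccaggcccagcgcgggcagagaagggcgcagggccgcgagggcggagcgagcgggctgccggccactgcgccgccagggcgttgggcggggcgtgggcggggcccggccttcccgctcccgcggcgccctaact

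The upstream window of Cdkn2a held 1 match, TTTCCCGC on the strand of the gene, whose first base lies 99 bases before the start. It was the only match in the 11 windows of 8 members in the RefSeq table; Ccnd1 and Ccnd2 have no window there. Of all 32851 such windows 1.30% held a match to either motif. A match is a string of letters and not a bound site, and no match says only that these letters are not in the window.

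Cdkn2a was well above background on all 8 arrays by both probes, at intensities from 25306 to 53433 units on the brighter one. Its levels there were 7.02 and 7.08 in GFP-positive and GFP-negative cells of 566, 6.97 and 7.14 in 567, 6.60 and 6.74 in 573, and 6.96 and 7.42 in 631. Both arrays of 573 lay below all others, and the other numbers overlapped. By the brighter probe the range was 1.43-fold (limma F-test across numbers, adjusted p = 0.243), at percentile 23.9 among the ranges of all genes. The dimmer probe gave 1.84-fold, or 0.88 on the log2 scale, which is above the median range of all genes, 0.82. Without arrays of tissue lacking large T no Cdkn2a level can be called raised or normal here.

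Cdkn2b, which makes p15, had levels of 3.37 and 3.59 in GFP-positive and GFP-negative cells of 566, 4.56 and 4.47 in 567, 3.40 and 3.07 in 573, and 3.98 and 4.36 in 631. Number 567 lay highest, 631 next, and 566 and 573 overlapped. The range was 2.42-fold (limma F-test across numbers, adjusted p = 0.0275) and 2.40-fold on the other probe. The call was lost without 567 or 573 (limma adjusted p = 0.133 and 0.0676). Over the 17 alternatives with a test across numbers the limma adjusted p ran from 0.000976, with median scaling, to 0.279. The call was lost in 6 of these 17, among them quantile normalization (limma adjusted p = 0.0838). Cdkn2b followed Ccnd3 across the arrays, with a Pearson correlation of 0.97 over 8 arrays; the arrays share 4 numbers, so this is a description of few independent points.

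Cdkn2c, which makes p18, differed most among the INK4 genes. It had levels of 1.55 and 1.66 in GFP-positive and GFP-negative cells of 566, 2.58 and 2.89 in 567, 2.12 and 2.36 in 573, and 4.36 and 5.48 in 631. No number overlapped another, and both arrays of 631 stood well above the rest. The mean of 631 was 9.97-fold that of 566 (limma F-test across numbers, adjusted p = 0.00621), and without 631 the range was 2.19-fold. Cdkn2c passed with each number left out. Over the 17 alternatives with a test across numbers the limma adjusted p ran from 3.78e-13 to 0.187, and it failed only without a filter on dim probes. The lowest came with median scaling, under which limma gave all genes 1 variance.

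Cdkn2d, which makes p19 of the INK4 family and is distinct from p19Arf, was the steadiest member. Its levels were 2.91 and 2.82 in GFP-positive and GFP-negative cells of 566, 3.17 and 3.18 in 567, 2.91 and 3.49 in 573, and 3.07 and 3.05 in 631. The value of GFP-negative cells of 573 was the highest. The range was 1.26-fold (limma F-test across numbers, adjusted p = 0.582).

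Cdkn1b, which makes p27, had its number means in the opposite order to those of Cdkn2c. Its levels were 3.45 and 3.52 in GFP-positive and GFP-negative cells of 566, 2.48 and 2.46 in 567, 2.99 and 3.32 in 573, and 2.32 and 2.08 in 631. No number overlapped another, with 566 highest and 631 lowest. The range was 2.44-fold (limma F-test across numbers, adjusted p = 0.0213). The call was lost without 566, 567 or 631 (limma adjusted p = 0.0676, 0.0617 and 0.0601). Over the 17 alternatives with a test across numbers the limma adjusted p ran from 0.00571 to 0.258. The call was lost in 6 of these 17, among them median scaling (limma adjusted p = 0.255).

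In number 631 the GFP-negative array stood apart in luminal and basal markers. The part of cell types in the differences between numbers was not tested. Across numbers 1 of 7 luminal and 1 of 7 basal markers passed by limma, against 28.2% of all genes. All 7 luminal markers were well above background on all 8 arrays. Their mean level was 3.75 in GFP-positive and 1.17 in GFP-negative cells of 631, against 3.92 to 4.75 on the other 6 arrays. The genes of the list did not move as 1 in that pair: Epcam was 3.98 higher in GFP-positive cells, while Krt8 and Krt18, the luminal keratins, differed by -0.31 and -0.13. In the same pair Cdkn2c was 1.12 higher and Ccnd2 1.64 lower in GFP-negative than in GFP-positive cells. The 6 fibroblast markers had means of 0.43 and 0.69 in 573, the number with the lowest Ccnd1 and Ccnd3, against 1.87 to 4.46 on the other arrays. Of the 8 leukocyte markers Ptprc, Cd3g and Ms4a1 were not well above background on any array. The mean level of that list ran from -4.12 to -1.96 in GFP-positive and from -3.92 to -2.99 in GFP-negative cells. The highest was on the GFP-positive array of 573, the array with the fewest detected spots. The 7 macrophage markers ran from -3.23 to -1.17 and from -2.81 to 0.22, and the 6 pericyte markers were at most -0.57 in GFP-positive and 0.04 to 0.98 in GFP-negative cells. The 7 basal markers had a mean of 1.82 in GFP-negative cells of 631 and 2.70 to 4.11 elsewhere. Of these, Krt5 and Krt14 were 3.97 and 4.24 higher in GFP-positive cells of 631, while Itga6 differed by -0.20. The 7 endothelial markers ran from -3.19 to 0.81 in GFP-positive and from -3.75 to -3.36 in GFP-negative cells. Itga6, which encodes CD49f, was detected on all 8 arrays, and Inpp5d, whose promoter drives the reporter, was higher in GFP-positive cells of all 4 pairs (mean difference 1.94; on the GFP-positive array of 573 it was not detected).

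The design compares GFP-positive with GFP-negative cells, and none of the 9 members tested differed by limma with the title number as a block (adjusted p from 0.747 to 0.967). The genes that passed in this comparison were 0% of the 20265 tested. Of the members, 0 had an unadjusted p under 0.05; over all genes 1300 did, of which 236 had a higher and 1064 a lower GFP-positive mean, and with no replicate block 194 did. All 9 members had a lower mean in GFP-positive cells, as did 72.6% of all genes; their median difference was -0.13 on the log2 scale and that of all genes -0.10. That offset moved with the scaling, from -0.16 with median scaling to 0.0091 when the percentile used probes detected on every array. The signs of Ccnd1, Ccnd2, Cdkn2b and Cdkn1b turned with at least 1 other scaling, and those of Ccnd3, Cdk4, Cdkn2a, Cdkn2c and Cdkn2d did not under the scalings tried.

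**Figure D3:**
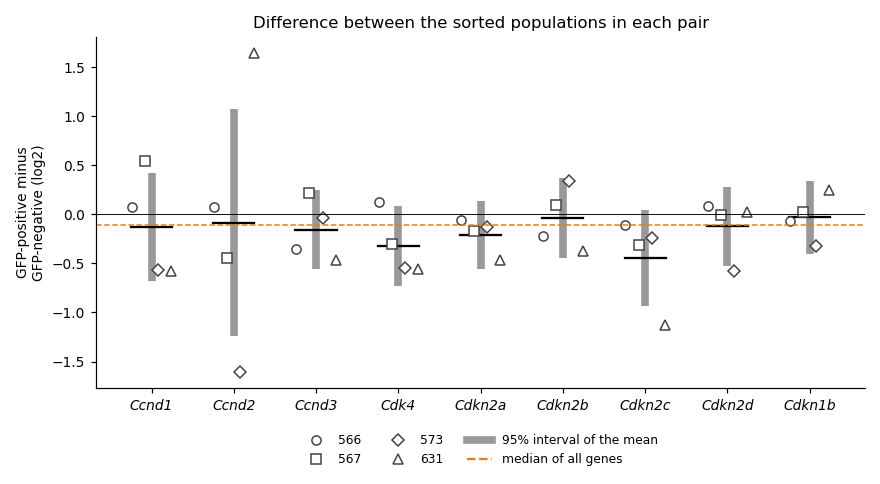
Difference between GFP-positive and GFP-negative cells (y axis, log2) of the 9 tested members, with 1 symbol per title number, a black line at the mean, a grey bar for the 95% interval of the mean from the fit with the number as a block, and a dashed line at the median of all genes. Every bar spans 0, and the symbols of Ccnd2 spread from -1.61 to 1.64.

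Cdkn2c and Cdkn2a were lower in GFP-positive cells of all 4 pairs, as were 15% of all genes. For Cdkn2c the differences in 566, 567, 573 and 631 were -0.11, -0.31, -0.25 and -1.12, with a mean of -0.45 (SE 0.20; 95% interval -0.94 to 0.04; limma adjusted p = 0.747). Most of this mean came from 631, without which it was -0.22. Cdkn2a differed by -0.05, -0.17, -0.13 and -0.47, with a mean of -0.21 (SE 0.14; 95% interval -0.55 to 0.14; limma adjusted p = 0.754), and its other probe by -0.37 on average, again lower in all 4 pairs. The mean of the brighter probe was -0.12 without 631 and -0.08 with quantile normalization. Cdk4 differed by 0.12, -0.30, -0.55 and -0.55, with a mean of -0.32 (SE 0.17; 95% interval -0.73 to 0.09; limma adjusted p = 0.747), and its other probes by -0.23 and -0.31. Without the block and the GFP-negative array of 631 the brightest probe gave -0.15. In these genes the pair of 631 had the lowest difference.

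For the cyclins the pairs went in different directions. Ccnd2 differed by 0.08, -0.44, -1.61 and 1.64 in 566, 567, 573 and 631, so its mean of -0.08 (SE 0.48; 95% interval -1.24 to 1.07) is a balance of opposite pairs. The -1.61 of 573 rests on the GFP-positive value that was not told from background. The other probes gave -1.92 and -1.32 there and 2.05 and 1.52 in 631. Their GFP-positive intensities in 573, 31.1 and 35.4, also lay below the 142 of that array's dimmest detected spot. In GFP-negative cells of 631 they were 29.6 and 21.3, near the 17.8 of the dimmest detected spot there. Ccnd1 differed by 0.08, 0.55, -0.56 and -0.58, with a mean of -0.13 (SE 0.23; 95% interval -0.68 to 0.42). Ccnd3 differed by -0.35, 0.22, -0.03 and -0.46, with a mean of -0.16 (SE 0.17; 95% interval -0.56 to 0.25).

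The other inhibitors lay closer to 0. Cdkn2b differed by -0.22, 0.09, 0.34 and -0.38, with a mean of -0.04 (SE 0.17; 95% interval -0.45 to 0.37), and its other probe by 0.09. Cdkn1b differed by -0.07, 0.02, -0.32 and 0.25, with a mean of -0.03 (SE 0.15; 95% interval -0.40 to 0.34). Cdkn2d differed by 0.09, -0.01, -0.58 and 0.02, with a mean of -0.12 (SE 0.17; 95% interval -0.52 to 0.28), which 573 carries. In the reported fit these intervals leave out a 2-fold mean change in either direction for the 8 tested members other than Ccnd2. For Cdkn2c this is by a small margin, since its interval reaches -0.94. With no replicate block the SE was 0.87 for Cdkn2c and 0.80 for Ccnd1, in place of 0.20 and 0.23. These were the largest such SEs among the 8. Slide column and sort cannot be told apart, so the intervals do not exclude a 2-fold effect of the sort alone. Cdk6 gave pair differences of 1.11, -0.33, 3.42 and -1.09, of which those of 566 and 573 rest on signal not well above background.

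The rest of the G1/S pathway was taken from 7 lists with 75 genes, of which 74 were tested and 0 passed between the populations in either direction by limma. Across the numbers 11 of the 74 passed, against 28.2% of all genes. Among the other Cip/Kip inhibitors both passed. Cdkn1c, which makes p57, had number means of 2.84, 2.55, 1.39 and 5.61 in 566, 567, 573 and 631, an 18.7-fold range (limma F-test across numbers, adjusted p = 0.00331) with 631 highest as for Cdkn2c. Cdkn1a, the p53 target that makes p21, had means of 3.69, 4.86, 2.76 and 4.28, a 4.27-fold range (limma adjusted p = 0.00743), with 567 highest and 573 lowest as for Cdkn2b and Ccnd3. Between the populations they differed by -0.40 (SE 0.15) and 0.17 (SE 0.15).

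**Figure D4:**
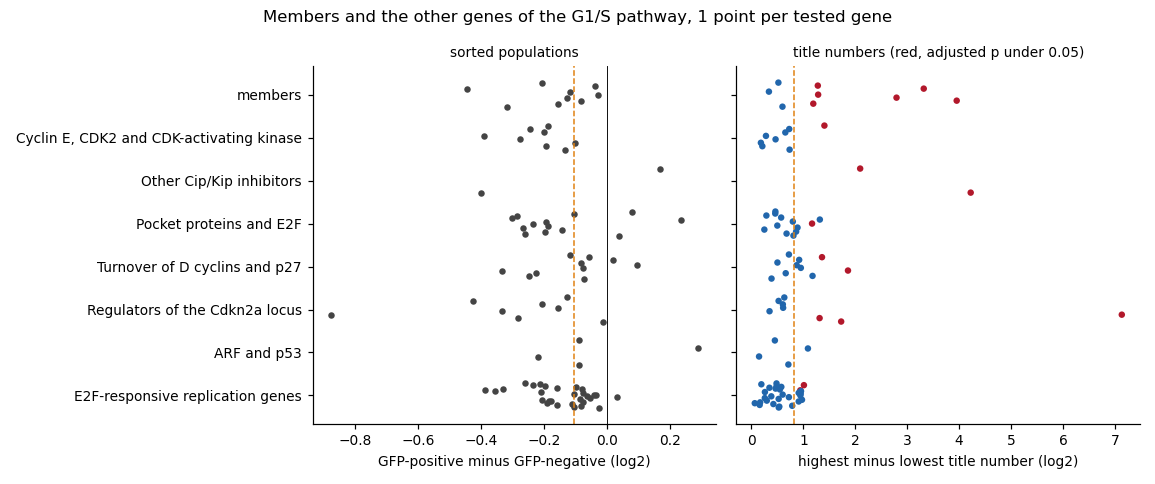
Tested genes of the members and of 7 lists of the G1/S pathway, 1 point per gene, by the difference between populations (left, log2) and by the range between title numbers (right, log2, red for an adjusted p under 0.05). Dashed lines mark the median of all genes. Members and Cip/Kip inhibitors reach wide ranges between numbers, and most pocket protein, E2F and replication genes stay near 1 or below.

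Of the 13 pocket protein and E2F genes, all tested, 10 were lower in GFP-positive cells, as were 72.6% of all genes. Of these 13 genes 0 passed, and the median difference was -0.20. The median of all genes moved with the scaling, from -0.16 to 0.0091, and such counts, here and in the lists below, include that offset. Across numbers only E2f4, a repressive E2F, passed of this list, with a 2.25-fold range and 631 highest (limma adjusted p = 0.0377). Rb1, the gene of the protein that large T binds, had number means of 1.36, 1.82, 1.53 and 1.45, a 1.38-fold range (limma adjusted p = 0.389), and differed by 0.08 (SE 0.16) between populations. E2f1, E2f6 and Tfdp1 had the smallest unadjusted p between populations of this list, at -0.30 (SE 0.15), -0.27 (SE 0.14) and -0.26 (SE 0.14).

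Of the 29 replication genes that E2F is known to drive, all tested, 28 were lower in GFP-positive cells, against 72.6% of all genes. Of these 29 genes 0 passed, and the median was -0.11, against -0.10 for all genes. The median of all genes moved with the scaling, from -0.16 to 0.0091, and the count of 28 includes that offset. Cdt1, a helicase loader, differed by -0.39 (SE 0.14) and was lower in all 4 pairs, Cdc6 by -0.33 (SE 0.16) and Mcm2 by -0.26 (SE 0.14). Across numbers Cdt1 and Mcm4 passed, with 1.92-fold and 2.01-fold ranges and 631 highest (limma adjusted p = 0.0408 and 0.0432). The median range of this list was 0.53 on the log2 scale, against 1.28 for the members and 0.82 for all genes.

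Of the 8 cyclin E, CDK2 and CDK-activating kinase genes all 8 were lower on average, against 72.6% of all genes. Of these 8 genes 0 passed, with a median of -0.20. Cdk2, the kinase of cyclin E, differed by -0.39 (SE 0.15) and was lower in all 4 pairs. Cdc25a, a phosphatase that activates CDK2, and Ccna2, cyclin A2, differed by -0.28 (SE 0.16) and -0.20 (SE 0.14). Ccne1, cyclin E1, passed across numbers with a 2.65-fold range, 631 highest and 573 lowest (limma adjusted p = 0.0227); Mnat1 had the next smallest p and did not pass.

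Of the 8 tested regulators of the Cdkn2a locus all 8 were lower on average, against 72.6% of all genes, and 0 passed. Tbx3, a T-box repressor of p19Arf, had number means of -0.54, 1.16, -2.88 and 4.25 in 566, 567, 573 and 631 (limma F-test across numbers, adjusted p = 0.00331). It was well above background on 7 of 8 arrays. Cdkn2a itself did not pass across numbers. Its mean was lowest in 573 on both probes. The highest was 631 on the brighter probe, within a 1.43-fold range, and 567 on the dimmer probe. A link between Tbx3 and Cdkn2a was not tested. Between populations Tbx3 differed by -0.88 (SE 0.25), Dmtf1, which activates the p19Arf promoter, by -0.33 (SE 0.18), and Myc by -0.28 (SE 0.15). Myc and Id1 passed across numbers, with 2.48-fold and 3.31-fold ranges and 566 highest (limma adjusted p = 0.0232 and 0.0203).

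Of the 10 genes of D-type cyclin and p27 turnover 8 were lower on average, against 72.6% of all genes, and 0 passed. Fbxo31, a ubiquitin ligase subunit that targets cyclin D1, passed across numbers with a 3.63-fold range, and Cks1b, the partner of Skp2 in p27 turnover, with 2.56-fold (limma adjusted p = 0.00748 and 0.0289). Both were highest in 631 and lowest in 566, the numbers with the lowest and the highest Cdkn1b mean. The highest Ccnd1 mean was also that of 631. All of these are RNA levels, and a link between them was not tested. Between populations Fbxo31, Gsk3b and Ambra1 differed by -0.33 (SE 0.14), -0.25 (SE 0.26) and -0.23 (SE 0.16). Of the 4 ARF and p53 genes 0 passed in either comparison; Mdm2, the p53 inhibitor, had the smallest p in both, with 0.29 (SE 0.18) between populations and a 2.12-fold range between numbers (limma adjusted p = 0.0566).

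The genes whose levels followed a member most closely over the 8 arrays were taken for the 6 members with an SD of at least 0.5. These are the highest of about 13318 correlations each over arrays that share 4 numbers, so they describe a shared order of numbers. Ccnd2 was followed by Cxcl10, C3 and Unc13d, at 0.98, 0.97 and 0.97. Ccnd1 was followed by Pcnx, Has2 and Msn, and Cdkn2c by Dipk1a, Wls and Ankrd9, all at 0.99 or 1.00. Ccnd3 was followed by Dnaaf5 and Cdk9, Cdkn2b by Ints5, Nes and Ryk, and Cdkn1b by Mterf4, Nsl1 and Dmac2, all at 0.99. Among the members themselves Ccnd1, Ccnd3 and Cdkn2b ran together, at 0.89 to 0.97, and Cdkn1b ran against them, at -0.72 to -0.83.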

How the data were processed

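The arrays measured total RNA labelled with Cy3, 1 array per sample. Per the file headers, Agilent Feature Extraction 10.7.3.1 produced the deposited intensity of each spot, linear, background-subtracted within the array and not normalized between arrays; the series-wide table deposited by the authors held the same intensity in all 62976 spots. Flags and control types, the other deposited columns, came from the same files. Controls and outlier-flagged spots were removed, and log2 intensity was averaged over the spots of a probe, which kept 56555 of 56605 gene probes. Accessions gave 32969 of them a symbol through a RefSeq gene table of GRCm38.p6, used for names; promoter sequences are from RefSeq, same build.

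Each array's 75th percentile over gene probes was subtracted. Of several passing probes of a gene the brightest was used, which left 20265 genes. Differences and F-tests came from limma 3.58.1 in R 4.3.3 with the title number as a fixed block and Benjamini-Hochberg adjustment over all genes. The pairing was checked by how the 2 arrays of a number deviate from the means of their sorts, with correlations of 0.573, 0.695, 0.642 and 0.741 for 566, 567, 573 and 631, against at most 0.221 otherwise. The code was tested on simulated data. Intervals are at 95% from the same fit.

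Alternatives were other scalings, normexp with an offset of 50 (on median signals, in place of the planned mean signals), other filters and floors, probe averaging, no replicate block, a random block, other variance models, array weights, and numbers or arrays left out. A percentile over gene spots and a robust variance were added after the data were seen. The members, lists and tests were chosen with earlier results of these data known. Named genes are all members, from each list the 3 with the smallest p between populations and, where a gene passed across numbers, the 2 with the smallest p there, Rb1, and the 3 genes that follow each member of SD at least 0.5 most closely; a result that this rule names is not reported here. Number of arrays limits the precision. A search for the LxCxE motif in protein sequences was planned and is not reported here.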

Additional observations from a re-analysis of the deposited data

Results flagged for a closer look

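Of 30 sets of 4 values (levels in each population and pair differences of the 10 genes), 2 held a value whose gap to the nearest other was over 0.829 of the range; chance flags about 1 in 20 such sets. The level of Cdkn2a in GFP-positive cells of 573 was 6.60, against 6.96 to 7.02 in the other numbers. The difference of Cdkn2d in 573 was -0.58, against -0.01 to 0.09. Both involve the GFP-positive array of 573, which had the fewest detected spots, and these genes were well above background there. For Cdkn2d that array, at 2.91, lay level with 566, and the GFP-negative array of 573 was the highest at 3.49. For Cdkn2a the GFP-negative array of 573, at 6.74, was also the lowest of its sort.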

How the results depend on the processing

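Between populations, members passing stayed at 0 in all 27 alternatives, and all genes passing were 0 except 195 with median scaling (131 higher, 64 lower), where limma pooled all genes to 1 variance, 1 with a random replicate block (a transcript with no symbol here), and 0 to 1 with a number or array left out (the 1, without 631, was Csn2 at -3.29, named after its value was seen). The replicate block changed no member's call. Across numbers, 5708 genes and 6 members passed; 2463 and 3 did with quantile normalization, 1559 and 1 with a common floor, 0 and 0 without a filter, where 7424 genes had an unadjusted p under 0.05 and 45586 were tested with limma, and 1978 to 4198 and 3 to 4 with a number left out. The floor left the members' values as they were, apart from Ccnd2. For these the cause was not tested.

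Differences that turned positive were those of Cdkn2b (0.083 with quantile normalization, 0.073 with the percentile over always-detected probes, 0.28 with normexp, 0.023 with the mean of probes, 0.0080 with array weights and 0.0068 with a percentile over gene spots), Cdkn1b (0.046 with quantile normalization, 0.083 with always-detected probes, 0.045 with normexp, 0.017 over gene spots), Ccnd2 (0.031 with always-detected probes) and Ccnd1 (0.019 with normexp, 0.11 with array weights). With numbers or arrays left out Ccnd1 ran from -0.58 to 0.46, Ccnd2 from -0.91 to 0.69, Ccnd3 from -0.41 to 0.025, Cdkn1b from -0.29 to 0.20, Cdkn2b from -0.31 to 0.16, Cdkn2c from -1.02 to 0.35 and Cdkn2d from -0.22 to 0.035. Cdkn2a and Cdk4 kept their sign in all 27 but not their size, with ranges of -0.32 to -0.08 and -0.47 to -0.15. Signal near background limits Cdk6 and Ccnd2.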
